A study of Mus musculus with 22 samples.

Results

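The genes described here are 30 genes of oligodendrocytes, the glial cells that make the myelin of the brain, and of the precursors from which these cells form. The rule is a list of names, drawn up for these roles with earlier results of these data known. Of the 30, 28 were measured by a probe set paired with that gene alone, among 18820 genes measured in this way. Mbp, which encodes myelin basic protein, and Nkx6-2, a homeodomain factor of differentiating oligodendrocytes, were not analysed here because their probe set is also paired with another gene. The 28 genes comprise 6 genes of precursors and newly forming cells, 3 transcription factors of the whole lineage and 19 genes of mature cells. The mature genes divide into 9 genes of myelin structure, 3 enzymes of myelin galactolipids and 7 others.

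Oligodendrocyte precursors carry the growth factor receptor Pdgfra and the NG2 proteoglycan, and they form myelinating cells under factors such as Olig2, Sox10 and Nkx2-2. A maturing cell passes through a stage marked by Gpr17, Enpp6 and Bcas1, and then wraps axons in a membrane rich in cholesterol, galactosylceramide and sulfatide. The hypothalamus is crossed and bordered by myelinated tracts, among them the fornix and the optic tract.

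Hypothalamic RNA was hybridised with 1 array per mouse in 22 male C57BL/6 mice, which were 6 weeks old when tumour cells were given. Tumour-bearing mice had received cells of Lewis lung carcinoma, a transplantable mouse tumour, in the muscle of a hind leg, and 5 of them were killed on day 10, 7 on day 14 and 6 on day 17. The 4 controls were killed on day 14, so the comparisons of days 10 and 17 with control also contain a difference in day, and the labels do not say what the controls received in place of tumour cells. Every group was anaesthetised with ketamine and xylazine before dissection, and no genetic change is given for any group. The title of the series concerns food intake and serotonin signalling in cachexia. Mice are numbered within their group as in the labels, and values are the authors' log2 values after RMA, in which a difference of 1 is a doubling.

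All 28 genes lay above a background level of 3.87 on all 22 arrays, in the precursor, lineage and mature classes alike. Their means over all arrays lay between 5.48 for Gal3st1 and 10.28 for Plekhb1, though levels of different probe sets cannot be set against each other. Of 6 measured markers of Schwann cells, the myelinating cells of peripheral nerve, 2 had a mean below background. The mean of these 6 markers lay between 4.30 and 4.56 on the day 17 arrays and between 4.26 and 4.50 on the control arrays.

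Some arrays stood apart before any comparison. Mouse 3 of day 10 was the lowest of its group in 25 of the 28 genes, and control 4 was the lowest of its group in 23 of 28. Mouse 1 of day 17 was the highest of its group in 19, mouse 1 of day 14 in 18, mouse 1 of day 10 in 15 and control 2 in 15. The mean of 30 other genes of mature oligodendrocytes, among them the transcription factor Myrf, placed the same arrays at the ends: it was 7.38 in mouse 3 and 7.80 in mouse 1 of day 10, and 7.42 in control 4. Mouse 3 of day 10 (7.74) and control 4 (7.84) also had the highest mean of 16 hypothalamus markers in their groups. The mean of 11 thalamus markers was highest in control 3 (7.40), mouse 2 of day 14 (6.98), control 1 (6.91) and mouse 1 of day 17 (6.71). Its group means were 6.16 on day 10, 6.23 on day 14, 6.16 on day 17 and 6.65 in controls. On days 10, 14 and 17, 11 of 11 were lower (49.7%, 52% and 53.7% of all genes). Limma called 0 of 11 on each day (0.106%, 0.218% and 1.12% of all genes). An unadjusted p below 0.05 was found in 5 on day 10, 1 on day 14 and 4 on day 17 (10.7%, 10.5% and 16.6% of all genes). The part of these differences in the results was not tested, and values without these arrays are given beside them. Since whole tissue was measured, fewer cells of a type and less RNA per cell cannot be told apart.

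**Figure D1:**
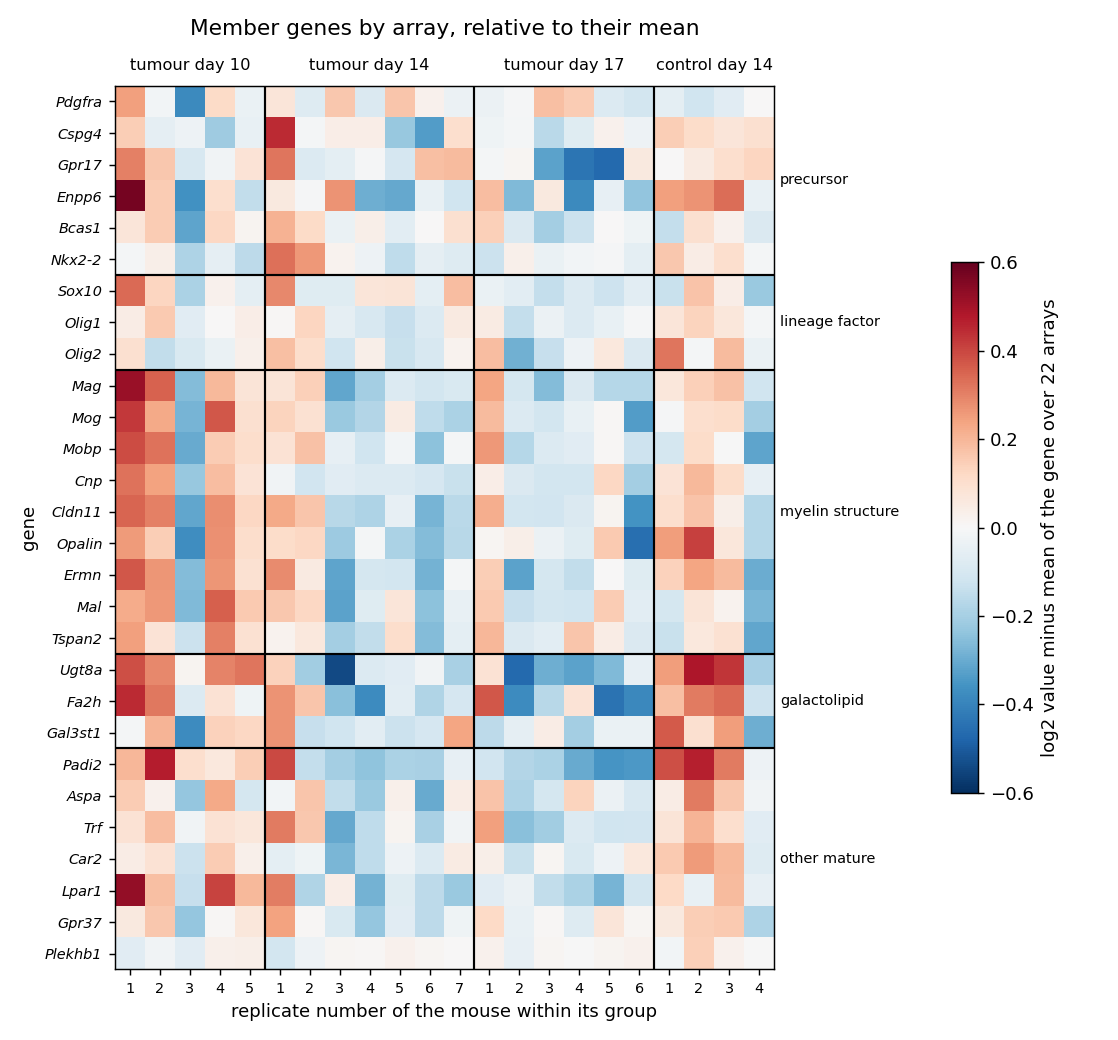
Log2 value of each of the 28 genes (rows, grouped by class) on each of the 22 arrays (columns, grouped by day and numbered by mouse), minus the mean of that gene over all arrays. Mouse 3 of day 10 and control 4 are mostly blue, and day 17 is mostly blue beside mouse 1 of that day, while Padi2 is blue in all 6 mice of day 17.

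By day 17, 1 of the 28 genes passed the test. Padi2, which encodes a peptidylarginine deiminase that citrullinates proteins including myelin basic protein, fell by 0.53 ± 0.11 on the log2 scale, or 1.44-fold (SE, 6 mice against 4 controls, limma adjusted p = 0.0236). On that day limma called 1.12% of all 18820 genes, and 0.685% of all genes were called lower. The mean was lower in 24 of the 28 genes, with a median change of -0.15, against 53.7% of all genes and a median of -0.01. These genes share their arrays, so such counts are not counts of independent observations. At an unadjusted p below 0.05, 6 of the 28 were lower and 0 higher, where 16.6% of all genes had such a p in either direction.

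The stretches of the genome around the start sites of Padi2 and Ugt8a are shown because these are the genes with the lowest p on day 17. They hold 250 bases before and 50 bases from the start site, as RefSeq gives them in GRCm38.p6. Capitals mark the GC box, GGGCGG or its complement CCGCCC. Padi2 lies at chr4:140906110-140906409 on the plus strand, and Ugt8a at chr3:125938603-125938902 on the minus strand, both written 5' to 3'.
Padi2: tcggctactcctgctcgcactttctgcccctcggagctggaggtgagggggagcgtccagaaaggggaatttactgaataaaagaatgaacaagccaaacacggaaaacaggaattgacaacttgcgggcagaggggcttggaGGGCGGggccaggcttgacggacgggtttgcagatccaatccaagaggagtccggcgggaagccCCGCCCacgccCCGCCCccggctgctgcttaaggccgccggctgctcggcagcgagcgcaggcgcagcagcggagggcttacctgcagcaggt
Ugt8a: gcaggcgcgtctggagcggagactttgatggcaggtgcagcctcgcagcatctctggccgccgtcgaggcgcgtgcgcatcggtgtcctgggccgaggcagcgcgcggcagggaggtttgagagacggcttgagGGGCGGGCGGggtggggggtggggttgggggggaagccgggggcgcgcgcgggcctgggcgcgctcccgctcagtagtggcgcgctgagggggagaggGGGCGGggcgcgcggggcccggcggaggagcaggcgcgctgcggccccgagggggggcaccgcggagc
The Padi2 stretch had 63.3% G and C and 3 GC boxes, and that of Ugt8a had 78.3% and 3 GC boxes, of which 2 overlap. Of the 28 measured genes, 21 had 29 such stretches in the table, with a median of 59.7% G and C, against 52.7% over all 32851 stretches. On either strand, the GC box stood in 34.5% of the 29 and 35.7% of all. The SOX core, ACAAAG or ACAATG, stood in 48.3% of the 29 (14 stretches, 11 genes) and 28.6% of all, and neither Padi2 nor Ugt8a held it. The E-box CANNTG stood in 58.6% and 72.3%, and the TATA box TATAAA in 6.9% and 13.6%. Matches describe letters only.

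Day 14 shares its day with the controls. Of the 28 genes 0 were called by limma on that day, beside 0.218% of all genes in either direction and 0.0213% lower, and 4 had an unadjusted p below 0.05, beside 10.5%. The mean was lower in 22 of 28 genes, with a median change of -0.10, against 52% of all genes and a median of -0.005. On day 10, 0 of the 28 were called by limma, beside 0.106% of all genes, and 0 had an unadjusted p below 0.05, beside 10.7%. On that day 13 of 28 had a lower mean, with a median change of 0.009, against 49.7% of all genes and a median of 0.001. A moderated F test over the 3 contrasts with control called 1 gene, Padi2, of the 28 (adjusted p = 0.0481), beside 0.335% of all genes. In this test 6 of the 28 had an unadjusted p below 0.05, beside 2216 of all 18820 genes. With each array left out in turn, this F test called a member in 3 of 22 fits, those without mouse 1 or mouse 6 of day 14 or without control 4. The 3 comparisons share the 4 controls.

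The doubted arrays moved these medians. Without control 4, the median change of the 28 genes was -0.05 on day 10 and -0.19 on day 17, with 26 of 28 lower on day 17. Without mouse 3 of day 10, the day 10 median was 0.06, and without mouse 1 of day 10 it was -0.026 with 17 of 28 lower. Without control 2, the day 17 median was -0.107 with 20 of 28 lower, and without mouse 1 of day 17 it was -0.164 with 25 of 28 lower. The day 14 median was -0.152 without mouse 1 of day 14, with 24 of 28 lower. With the mean of the thalamus markers in the model, the day 17 median was -0.06 with 20 of 28 lower, and with the 4 arrays of highest thalamus level left out it was -0.115 with 22 of 28 lower. On day 14 the median was -0.04 and -0.07 in these 2 fits, with 20 of 28 lower in both. Without control 4 it was -0.17 on that day. The sample records form an earlier run of 9 and a later run of 13. On day 17 the median was -0.125 in the earlier run and -0.122 in the later run alone, on day 14 it was -0.035 and -0.165, and on day 10 it was 0.14 in the earlier run, which holds 1 control, and -0.07 in the later run, which holds 3.

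**Figure D2:**
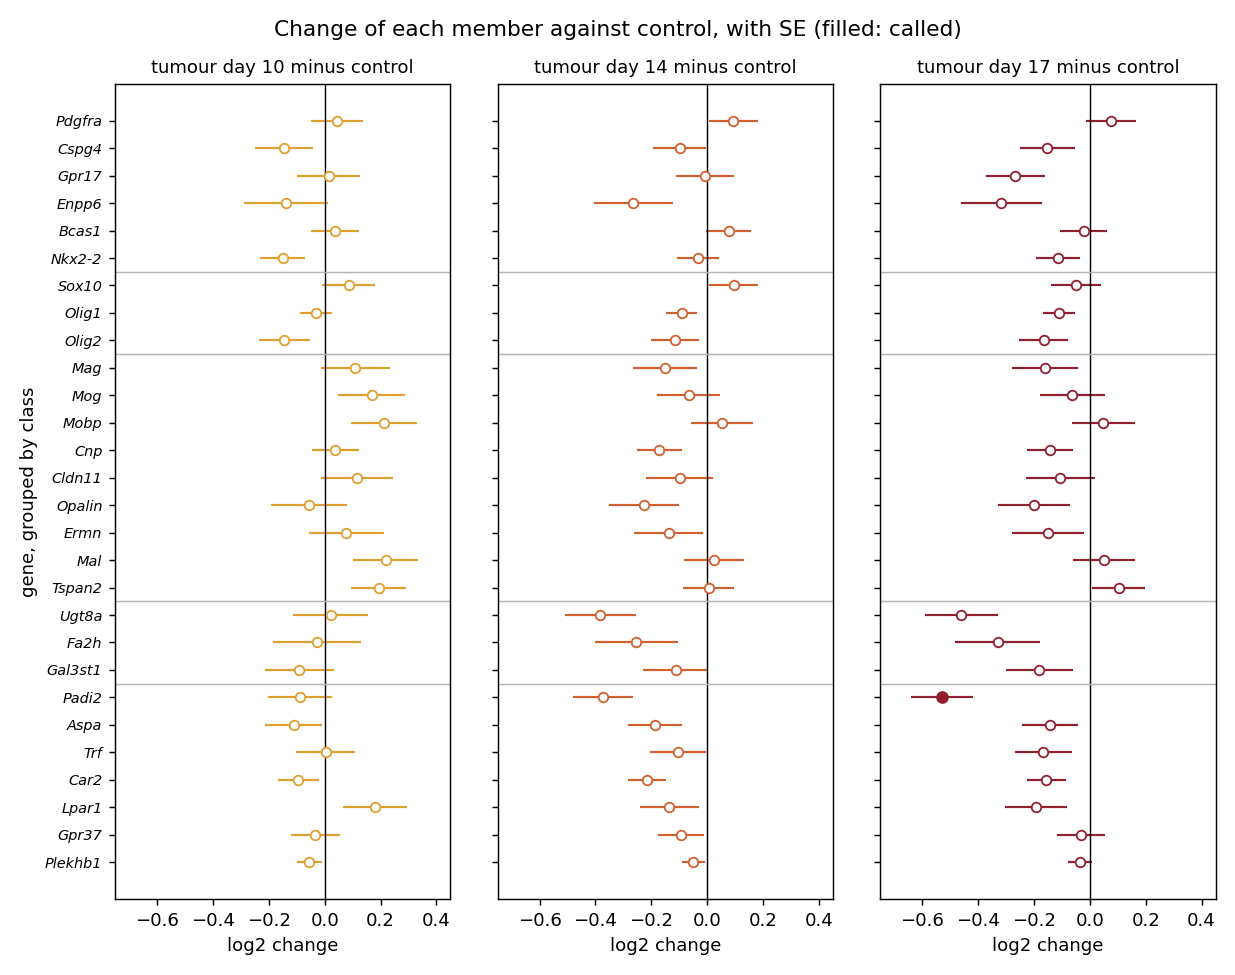
Log2 change against control of each of the 28 genes on day 10, day 14 and day 17 (panels), with its SE (bars). Filled points passed the limma test at an adjusted p below 0.05, which Padi2 on day 17 alone did, and the points of day 17 lie left of 0 for 24 of the 28 genes.

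Among the genes of precursors and newly forming cells, 0 of 6 passed limma on any day. Pdgfra, the receptor for platelet-derived growth factor, had values of 7.62 to 8.25 on day 10, 7.92 to 8.17 on day 14 and 7.89 to 8.19 on day 17, against 7.95, 7.88, 7.94 and 8.01 in controls. The groups overlapped, and the change was 0.08 ± 0.09 on day 17 (95% interval -0.11 to 0.26, limma adjusted p = 0.709). Cspg4, which encodes the NG2 proteoglycan, had values of 5.97 to 6.16, with a median of 6.10, on day 17, against 6.28, 6.24, 6.20 and 6.23 in controls. All 6 mice of day 17 lay below all 4 controls, which holds for 3.3% of all genes, and the change was -0.15 ± 0.10 (limma adjusted p = 0.456). The controls of Cspg4 were close together (SD 0.032), whereas the 7 mice of day 14 ran from 5.80 to 6.58.

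Gpr17, a receptor that holds back the maturation of committed precursors, split the day 17 mice. Mice 3, 4 and 5 had values of 7.03, 6.91 and 6.89, below every other array of the series, and mice 1, 2 and 6 had 7.34, 7.36 and 7.41, against 7.35, 7.41, 7.45 and 7.48 in controls. The change was -0.27 ± 0.11 (limma adjusted p = 0.22). Enpp6, a choline phosphodiesterase of newly forming oligodendrocytes, had values of 5.82 to 6.39 on day 17, with a median of 6.06, against 6.45, 6.47, 6.54 and 6.16 in controls. Mice 2, 4, 5 and 6 lay below every control in Enpp6, and its change was -0.32 ± 0.15 (limma adjusted p = 0.276). Bcas1, a protein of early myelinating cells, differed by -0.02 ± 0.08 on day 17, and Nkx2-2, a factor that drives precursors towards differentiation, by -0.11 ± 0.08. The class as a whole had 5 of 6 lower means on day 17, with a median change of -0.13, after medians of -0.06 on day 10 and -0.02 on day 14.

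The lineage factors had small changes. Olig1 and Olig2, basic helix-loop-helix factors of the lineage, differed from control by -0.11 ± 0.06 and -0.16 ± 0.09 on day 17, and Sox10, an HMG-box factor, by -0.05 ± 0.09. All 3 had a lower mean on day 17, and 0 of 3 passed limma on any day (lowest adjusted p = 0.327, for Olig1 on day 17). Sox10 had a narrow range of 6.23 to 6.33 on day 17, inside the range of 6.15 to 6.54 in controls.

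The 9 genes of myelin structure differed in direction by day in their means: 8 of 9 were higher than control on day 10 with a median change of 0.12, and 6 of 9 were lower on day 14 and on day 17 with medians of -0.10 and -0.11. On each day 0 of 9 passed limma, and Cnp on day 14 was the 1 case with an unadjusted p below 0.05. Mag, an adhesion protein of the innermost myelin layer, had 9.63, 9.47, 8.86, 9.31 and 9.20 on day 10, a range of 8.80 to 9.26 with a median of 9.02 on day 14, and a range of 8.85 to 9.35 with a median of 8.98 on day 17, against 9.18, 9.26, 9.29 and 8.995 in controls. In Mag, 3 of the 5 mice of day 10 exceeded every control while mouse 3 lay below all of them, and 3 of the 6 mice of day 17 lay below all controls. Its changes were 0.11 ± 0.12, -0.15 ± 0.12 and -0.16 ± 0.12 on days 10, 14 and 17 (limma adjusted p = 0.778, 0.677 and 0.52).

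Mobp, a small basic protein of compact myelin, had 10.23, 10.17, 9.54, 9.99 and 9.94 on day 10 and medians of 9.82 on day 14 and 9.76 on day 17, against 9.73, 9.95, 9.84 and 9.52 in controls. Its change was 0.21 ± 0.12 on day 10 and 0.05 ± 0.11 on day 17, and the groups overlapped on each day. Mal, a proteolipid of myelin rafts, and Tspan2, a tetraspanin of oligodendrocytes, were likewise higher in the mean on day 10, by 0.22 ± 0.12 and 0.19 ± 0.10, and differed by 0.05 ± 0.11 and 0.10 ± 0.095 on day 17. These 3 were the genes of the class with a higher mean than control on all 3 days. Mog, of the outer myelin surface, differed from control by 0.17 ± 0.12 on day 10 and by -0.06 ± 0.12 on day 17, and Cldn11, the claudin of the junctions between myelin layers, by 0.12 ± 0.13 and -0.11 ± 0.12.

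Cnp, the cyclic nucleotide phosphodiesterase of non-compact myelin, had a tight range of 10.13 to 10.24 on day 14, with a median of 10.18, against 10.34, 10.46, 10.37 and 10.21 in controls. Of the 7 mice of day 14, 6 lay below all controls, and the change was -0.17 ± 0.08 (limma adjusted p = 0.456). Opalin, a transmembrane protein of mature oligodendrocytes, differed by -0.20 ± 0.13 on day 17, and Ermn, an actin-binding protein of late myelination, by -0.15 ± 0.13, both with ranges that overlapped those of the controls.

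The difference between days did not involve the controls. All 9 genes of myelin structure had a lower mean on day 14 than on day 10, with a median change of -0.21, and all 9 also had a lower mean on day 17 than on day 10, with a median of -0.18. Mouse 3 of day 10 was the lowest of its group in all 9 genes. Leaving it out could therefore only make these changes more negative (medians -0.30 and -0.27). The numbers of 9 genes stayed the same without mouse 1 of day 10 (-0.16 and -0.15) and with the 4 arrays of highest thalamus level left out (-0.22 for both). They also stayed the same within each run of sample records (-0.29 and -0.33 in the earlier run, -0.16 and -0.10 in the later run). None of these changes passed limma: 0 of the 28 genes were called on day 14 against day 10, beside 0.00531% of all genes, and 0 were called on day 17 against day 10, beside 0% of all genes. Of the 28 genes 21 had a lower mean on day 14 than on day 10 (53.5% of all genes) and 24 on day 17 than on day 10 (56.5%). At an unadjusted p below 0.05, 7 of the 28 were lower on day 14 than on day 10 and 0 higher (7.13% of all genes in either direction), and 8 were lower on day 17 than on day 10 and 0 higher (8.3%). The 9 genes were read from the same arrays and are not independent of each other. With the mean of the thalamus markers in the model, 9 of 9 had a higher mean than control on day 10 and 5 of 9 on day 17, and the day 14 median was -0.002. In the later run alone, 5 of 9 had a higher mean than control on day 10, and without control 4 the number was 6 of 9.

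**Figure D3:**
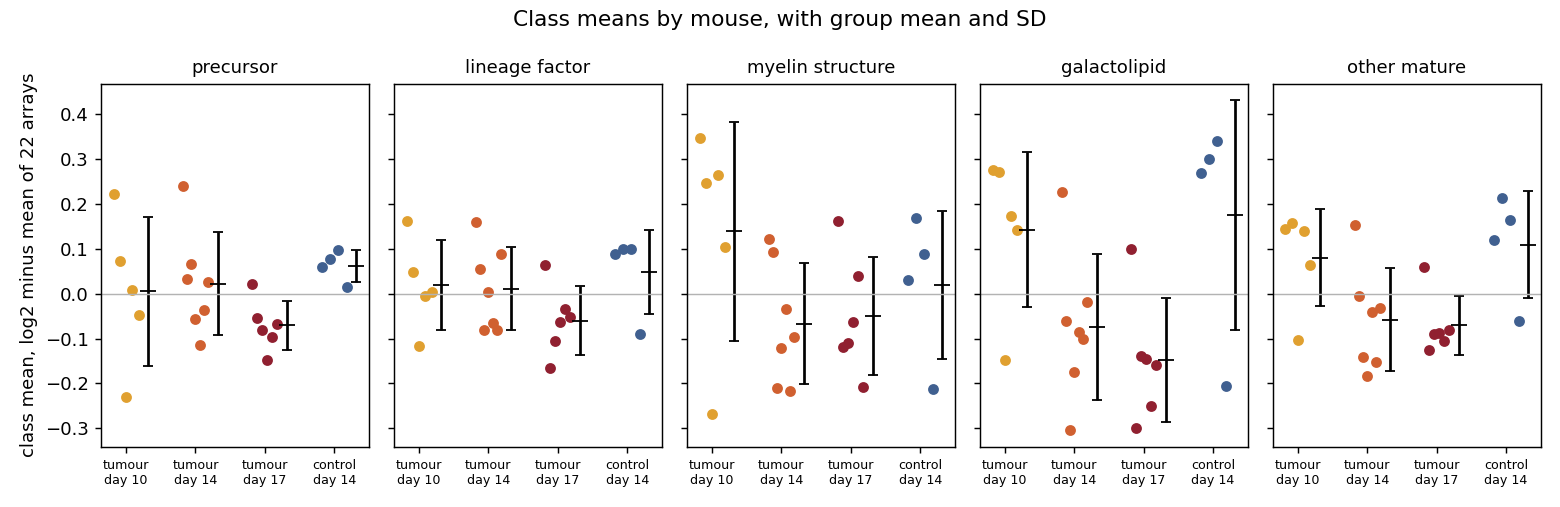
Mean over the genes of a class of the log2 value minus its mean over 22 arrays, for each mouse (points), with the mean and SD of the group (bars), on days 10, 14 and 17 and in controls. Myelin structure genes lie at 0.345 in mouse 1 and at -0.267 in mouse 3 of day 10, and the galactolipid enzymes of control 4 lie at -0.205, apart from the other 3 controls.

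Among the 5 classes, the enzymes of myelin galactolipids had the lowest median on days 14 and 17. All 3 had a lower mean than control on day 14 and on day 17, with median changes of -0.25 and -0.33, after a median of -0.03 on day 10. The day 17 median was -0.165 with the mean of the thalamus markers in the model, and with the 4 arrays of highest thalamus level left out 2 of 3 were lower. Ugt8a, the ceramide galactosyltransferase that makes galactosylceramide, had 8.87, 8.77, 8.50, 8.78 and 8.81 on day 10. It had a range of 7.94 to 8.62 with a median of 8.40 on day 14, and of 8.02 to 8.57 with a median of 8.20 on day 17, against 8.73, 8.97, 8.91 and 8.28 in controls. Of the 7 mice of day 14, 2 lay below every control, and of the 6 mice of day 17, 4 did. The change was 0.02 ± 0.135 on day 10, -0.38 ± 0.13 on day 14 and -0.46 ± 0.13 on day 17 (limma adjusted p = 0.97, 0.247 and 0.084).

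Ugt8a on day 17 did not pass (limma adjusted p = 0.084), and most other fits did not call it either. It passed in 3 of 13 other settings, namely a variance trend (limma adjusted p = 0.0475), array weights (0.0208) and a replicate block (0.0461). With 1 array left out it passed in 1 of 22 fits, that without control 4, the low control (change -0.61, 0.0178). Without control 1, control 2 or control 3 it gave 0.19, 0.228 and 0.251. It gave 0.195 with the mean of the thalamus markers in the model and 0.494 with the 4 arrays of highest thalamus level left out. On day 14 the fit without control 4 was the 1 fit of all settings that called it (change -0.53, limma adjusted p = 0.0463). Against day 10, the change of Ugt8a was -0.40 ± 0.12 on day 14 and -0.48 ± 0.12 on day 17, with values under 8.50, the lowest of day 10, in 6 of 7 and 5 of 6 mice (limma adjusted p = 0.516 and 0.294). Fa2h, which hydroxylates the fatty acids of these lipids, differed by -0.33 ± 0.15 on day 17 (limma adjusted p = 0.279). Its mouse 1 of day 17 stood at 8.32, above every control, while the other 5 ran from 7.51 to 8.03, against 8.13, 8.26, 8.29 and 7.83 in controls. Gal3st1, which adds the sulfate of sulfatide, differed by -0.18 ± 0.12, and its day 17 values of 5.27 to 5.52 lay inside the control range of 5.18 to 5.84.

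Padi2 had the largest change of the 28 genes on day 17. Its values were 6.23, 6.18, 6.16, 6.05, 6.00 and 6.01 in mice 1 to 6 of day 17, against 6.74, 6.82, 6.67 and 6.32 in controls. Each of the 6 mice lay below each of the 4 controls and each of the 5 mice of day 10, whose values were 6.55, 6.82, 6.45, 6.41 and 6.50. Such a gap was found in 0.521% of all genes for day 17 below day 10, where Padi2 was the 1 gene of the 28. On day 17, Padi2 and Cspg4 were the 2 of 28 genes with all tumour arrays below all controls (3.3% of all genes), and 0 of 28 had all above (1.66%). On day 14, 0 of 28 lay all below (1.06%) and 0 all above (0.776%), and on day 10 likewise 0 all below (2.24%) and 0 all above (2.21%). Against day 10 its change was -0.44 ± 0.10 (limma adjusted p = 0.221). On day 14, mouse 1 had 6.75 and the other 6 mice 6.11 to 6.30, so that 6 of 7 lay below all controls, and the change was -0.37 ± 0.11 (limma adjusted p = 0.169). Without mouse 1 of day 14 the change on that day was -0.46 (limma adjusted p = 0.0217), and without control 4 it was -0.48 (0.0463). On day 10 the change was -0.09 ± 0.115.

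The Padi2 change on day 17 kept its sign in every fit, while its call depended on the fit. Since every mouse of day 17 lay below every control, leaving out or weighting arrays could not turn the sign. The same holds for fits within a run of sample records. Over 13 other settings of the fit, the change lay between -0.58 and -0.48, and 11 of 13 called it. Settings that alter only the variance estimate, the genes tested or the groups fitted could not move the change from -0.53. The same holds for the mean of probe sets, since Padi2 has 1. It was not called with the mean of the thalamus markers in the model (-0.48, limma adjusted p = 0.0788) or with the 4 arrays of highest thalamus level left out (-0.49, adjusted p = 0.366, a fit in which 0 of 18820 genes were called). With each array left out in turn, the change lay between -0.64 and -0.47, and the call was lost without control 1, control 2, control 3 or mouse 4 of day 17 (limma adjusted p = 0.103, 0.0871, 0.0787 and 0.0553). Leaving out an array of day 10 or day 14 could not move the change. Without control 4, the lowest control, the change was -0.64 (adjusted p = 0.00573). In the earlier run of sample records alone it was -0.55 and in the later run alone -0.58, without a call in either.

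**Figure D4:**
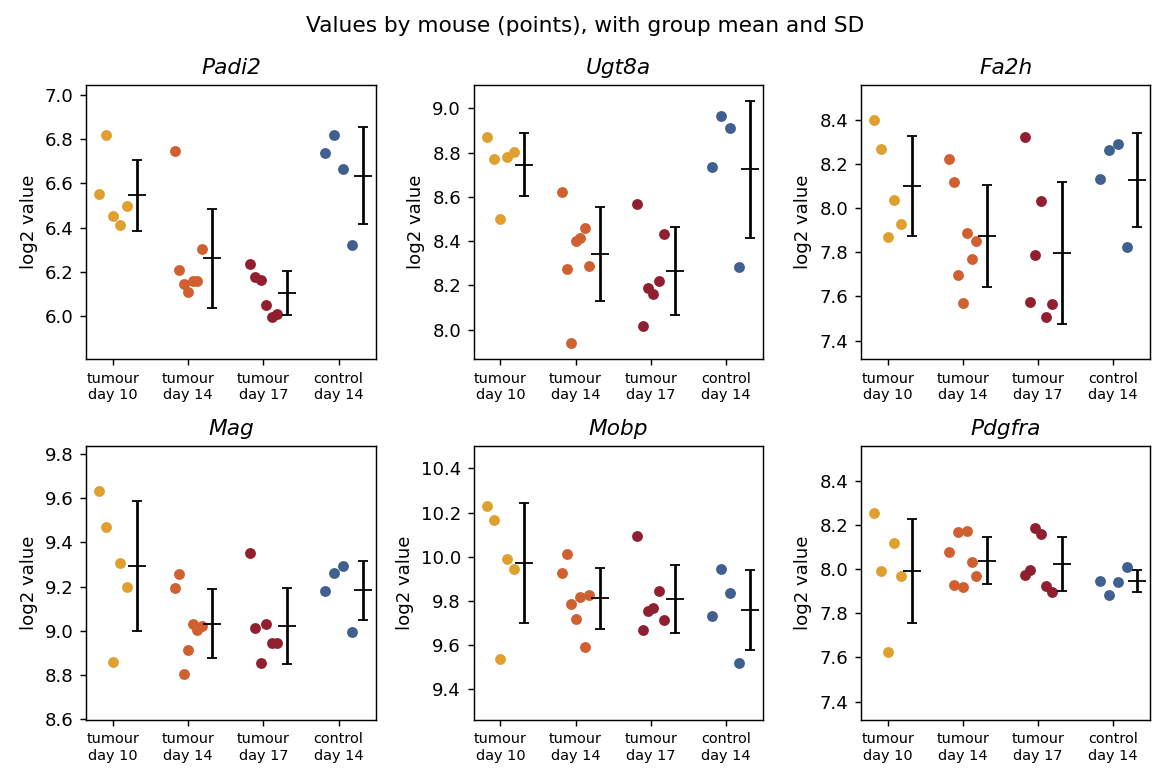
Log2 value of Padi2, Ugt8a, Fa2h, Mag, Mobp and Pdgfra in each mouse (points), with the mean and SD of each group (bars), on days 10, 14 and 17 and in controls. Padi2 is the panel in which the points of day 17 lie below every control, and in Padi2, Ugt8a and Fa2h control 4 lies apart below the other 3 controls.

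**Figure D5:**
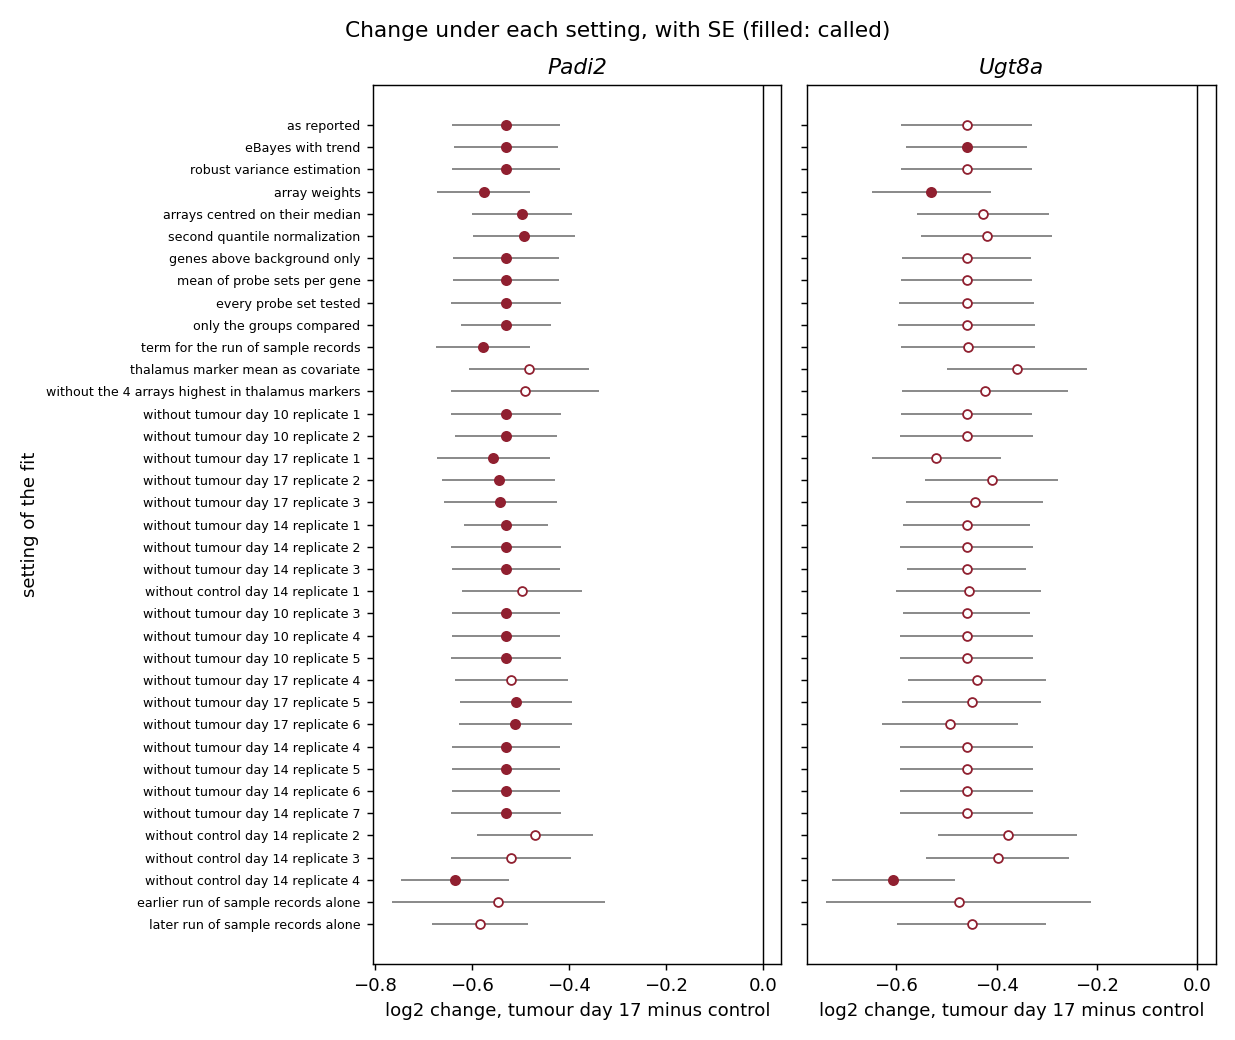
Log2 change of Padi2 and of Ugt8a on day 17 against control under the settings of the fit named at the left (rows), with its SE (bars); filled points passed at an adjusted p below 0.05. The fit with a replicate block, which also called both genes, is not drawn. All points lie left of 0, Padi2 is filled in most rows, and among the rows drawn Ugt8a is filled with the trend, with array weights and without control 4.

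The other 6 mature genes had smaller changes than Padi2 on days 14 and 17. Car2, carbonic anhydrase 2, had a range of 8.997 to 9.32 with a median of 9.22 on day 14, and of 9.14 to 9.34 with a median of 9.26 on day 17, against 9.43, 9.53, 9.47 and 9.20 in controls. In Car2, 3 of 7 mice of day 14 and 2 of 6 mice of day 17 lay below every control. Its changes were -0.21 ± 0.07 and -0.16 ± 0.07 (limma adjusted p = 0.225 and 0.266). Lpar1, a receptor for lysophosphatidic acid, had 7.55, 7.20, 6.88, 7.43 and 7.21 on day 10, with 3 mice above every control, and 6.74 to 6.98 on day 17, against 7.14, 6.98, 7.21 and 6.97 in controls. In Lpar1, 5 of 6 mice of day 17 lay below every control, and its changes were 0.18 ± 0.11 on day 10 and -0.19 ± 0.11 on day 17 (limma adjusted p = 0.592 and 0.379). On day 17 against day 10 its change was -0.37 ± 0.10 (limma adjusted p = 0.323).

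Trf, the iron carrier transferrin, was below every control in 5 of 6 mice of day 17, at 9.99 to 10.16, and above every control in mouse 1, at 10.49, against 10.32, 10.45, 10.34 and 10.17 in controls. Its change was -0.17 ± 0.10 (limma adjusted p = 0.42). Aspa, the aspartoacylase that cleaves N-acetylaspartate, differed by -0.14 ± 0.10, and Gpr37, an orphan receptor of oligodendrocytes, by -0.03 ± 0.085 on day 17. Plekhb1, also called evectin 1, had the smallest SD within groups of the 28 genes, 0.049, against 0.255 for Fa2h, the largest. Its change was -0.035 ± 0.043 on day 17, with a 95% interval of -0.125 to 0.055.

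Among the tumour-bearing mice alone, a straight line over days 10, 14 and 17 had a negative slope in 25 of the 28 genes, with a median of -0.02 per day, against 56.5% and -0.002 for all genes. Of the 28 slopes 0 passed limma, beside 0% of all genes, and 8 had an unadjusted p below 0.05, all negative, beside 8.57% of all genes. On day 17 the mean was lower than on day 14 in 19 of the 28 genes, beside 54.3% of all genes, with a median change of -0.02, and 0 were called by limma, beside 0% of all genes, with 1 at an unadjusted p below 0.05, beside 4.17%.

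Other genes of the pathway were read from the same fit. Cholesterol synthesis supplies a main lipid of myelin and runs in other brain cells as well. Of its 18 measured genes, limma called 3 lower on day 17, beside 0.685% of all genes. On that day 18 of 18 had a lower mean, beside 53.7% of all genes. The medians were -0.11, -0.20 and -0.25 on days 10, 14 and 17, against -0.01 for all genes on day 17. Cyp51, the sterol 14-demethylase, fell by 0.34 ± 0.06, Dhcr7, which completes cholesterol in one branch, by 0.30 ± 0.07, and Sc5d, the lathosterol desaturase, by 0.22 ± 0.05 (limma adjusted p = 0.0114, 0.0414 and 0.0263). The mean of the 18 genes was 7.56 to 7.70 on the day 17 arrays, against 7.78 to 7.89 in controls, without overlap. The list was chosen with earlier results known, and its mean was not tested. The number called was 1 with the mean of the thalamus markers in the model, 0 with the 4 arrays of highest thalamus level left out and 0 without control 2, where 17, 17 and 18 of 18 had a lower mean. It was 1 without control 1 or without mouse 4 of day 17, and 9 with array weights.

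Of the 30 other genes of mature oligodendrocytes 0 passed limma on any day and 6 had an unadjusted p below 0.05 on day 17 (16.6% of all genes), with 21 lower (53.7% of all genes) on day 17 and a median of -0.05, or 0.01 with the mean of the thalamus markers in the model. Tppp, a tubulin-binding protein, had the smallest p on day 17 with a change of -0.20 ± 0.07 (limma adjusted p = 0.133), followed by Efnb3, the ligand ephrin B3, at -0.17 ± 0.07 (0.237). Of 15 other precursor genes 0 passed limma on any day and 3 had an unadjusted p below 0.05 on day 17, with a median of -0.02 on day 17, and Vcan, the proteoglycan versican, differed by 0.20 ± 0.05 on day 17 (limma adjusted p = 0.0578) and Tnr, the matrix protein tenascin R, by -0.12 ± 0.05 (0.251). Of 12 genes of sphingolipid metabolism and 15 of signals to oligodendrocytes 0 passed limma on any day, with medians of -0.03 and -0.05 and with 3 and 2 genes at an unadjusted p below 0.05 on day 17. The 16.6% of all genes at such a p is also the background of these 3 lists. Arsa, which degrades sulfatide, differed by -0.16 ± 0.06 on day 17 (limma adjusted p = 0.175), and Hsd17b12, of fatty acid elongation, by -0.14 ± 0.05 (0.156). Erbb3, a neuregulin receptor, differed by -0.25 ± 0.10, and Lingo1, a neuronal inhibitor of myelination, by -0.17 ± 0.07 (limma adjusted p = 0.234 for both).

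Markers of other cells were read on the same arrays. On day 17 limma called 1.12% of all genes, 53.7% had a lower mean and 16.6% had an unadjusted p below 0.05. All 12 neuron markers had a lower mean on each day, with a median of -0.13 on day 17, and Nefl, a neurofilament subunit, fell by 0.23 ± 0.06 (limma adjusted p = 0.0445). The mean of the 12 was 9.66 to 9.79 on day 17, against 9.77 to 9.90 in controls. Of 13 microglia markers 12 had a lower mean on day 17, with a median of -0.07, and 2 had an unadjusted p below 0.05. On that day limma called 1 of the 13, Fcrls, an Fc receptor-like gene of microglia, which fell by 0.70 ± 0.09 (limma adjusted p = 0.00104). The list means were 6.09 to 6.34 on day 17 against 6.32 to 6.41 in controls. All 4 red cell markers had a higher mean on day 17, 2 of them with means below background, and 3 rose, one of these, Rhag, below background at 2.82 on day 17 against 2.41 in controls. The others were Alas2 of heme synthesis, which rose by 2.42 ± 0.34, and the anion exchanger Slc4a1, which rose by 2.10 ± 0.35 (limma adjusted p = 0.00128 and 0.00372), with list means of 4.90 to 5.88 on day 17 against 3.62 to 4.34 in controls. Of 11 astrocyte markers 0 passed limma on any day and 3 had an unadjusted p below 0.05 on day 17, with a median of -0.03 on day 17. The part of these cell types in the values of the 28 genes was not tested.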

How the data were processed

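RNA of the hypothalamus of 22 mice was measured with 1 array per mouse. The deposited table holds log2 values that the authors made with RMA, per the submitters' processing notes; the RMA version and the annotation used are not given in the sources used here. RMA brings all arrays to 1 distribution, so that a change shared by most genes cannot be seen. Of 35556 probe sets, 21218 were paired with 1 gene, 1881 with several and 12457 with none. The probe set with the highest mean stood for each of 18820 genes, and probe sets paired with several genes were left out, which removed Mbp and Nkx6-2. Background was the 95th percentile of 1180 receptor probe sets.

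All genes were fitted together with limma 3.58.1 in R 4.3.3 on the 4 group means (18 residual degrees of freedom), with Benjamini-Hochberg adjustment over all genes and a threshold of 0.05. The procedure was tested on simulated data with independent noise for each gene, a setting without the shared differences between arrays seen here. The number of arrays limits the precision, and the labels describe separate mice. Members and gene lists were chosen with earlier results of these data known, so no test is given for a list or a class mean. All members were named. From the other lists of the pathway, genes that passed were named, or otherwise the 2 genes with the smallest p on day 17. From marker lists of other cells or regions, the genes that passed were named and no others. The alternatives were other variance and array weights, scalings, probe set rules, filters, a replicate block, a thalamus marker covariate, each array left out, and a term for the run of sample records, which the labels do not call a batch. Fits within each run were chosen after seeing the data. Sequences are those of RefSeq, GRCm38.p6.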

Additional observations from a re-analysis of the deposited data

Results flagged for a closer look

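In groups of 4 to 7 mice, 11 of 136 groups of values had 1 array far from the others by Dixon's test at the 95% level, which chance gives in about 1 of 20 groups. Of the single-gene groups 7 of 112 did. Mouse 1 of day 17 gave 4 of the 11, mouse 3 of day 10 gave 3, mouse 1 of day 14 gave 2 and control 4 gave 2.

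Mouse 3 of day 10 was the lowest of its group in Bcas1, at 7.911 where the others had 8.247 to 8.383. It was also lowest in Opalin, at 6.615 where the others had 7.093 to 7.262, and in Ugt8a, at 8.5 where the others had 8.772 to 8.869. Mouse 1 of day 17 was the highest of its group in Mag, at 9.351 where the others had 8.854 to 9.031, and in Trf, at 10.488 where the others had 9.988 to 10.159. Its mean over the 7 other mature genes was 0.059, where the others had -0.125 to -0.08, and over all 19 mature genes 0.114, where the others had -0.153 to -0.06.

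Mouse 1 of day 14 was the highest of its group in Padi2, at 6.746 where the others had 6.109 to 6.303, and the lowest in Plekhb1, at 10.173 where the others had 10.25 to 10.305. Control 4 had a mean of -0.205 over the galactolipid enzymes, where the other controls had 0.267 to 0.34, and of -0.091 over the lineage factors, where they had 0.087 to 0.099.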

How the results depend on the processing

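On day 17 against control, 1 of the 28 genes was called. The number was 2 with a variance trend, with array weights, with the replicate block and at an adjusted p below 0.1, and 6 at an unadjusted p below 0.05. It was 0 with the thalamus marker covariate, without the 4 arrays highest in those markers, and in the earlier or the later run alone, which hold fewer arrays. With 1 array left out it lay between 0 and 2. On day 14, 0 genes were called, 1 with array weights, 4 unadjusted, and 0 to 2 with 1 array left out. The F test called 1 gene, 2 with the trend or with array weights, 0 with every probe set tested, with the thalamus marker covariate, without the 4 arrays or in either run alone, 6 unadjusted, and 0 to 2 with 1 array left out; it has no value in fits of only the groups compared. At an unadjusted p below 0.05 the numbers were 7 on day 14 against day 10, 8 on day 17 against day 10, 1 on day 17 against day 14 and 8 for the line over days, where 0 were called. The cause of these differences was not tested. No change reversed its sign while called. Over all 18820 genes, day 17 gave 211 calls, 323 with the trend, 457 with array weights, 616 with the replicate block, 81 with only the groups compared, 87 with the thalamus marker covariate and 0 without the 4 arrays.

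Replicate numbers are shared between groups, but the labels tie them to nothing. Of 28 pairs of arrays with the same number, 15 had a correlation of their deviations above 0.1 (range -0.193 to 0.35, median 0.119), against a median of -0.01 for other pairs, and 5 of 22 arrays correlated best with their own number. With the replicate block, the change of Padi2 on day 17 was -0.487 (limma adjusted p = 0.0121) and that of Ugt8a -0.498 (0.0461).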

Other observations

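Other marker lists were read on the same arrays, as values. Of 16 hypothalamus markers, Ghrh, the growth hormone releasing hormone, rose on day 17 by 0.70 ± 0.125 and Npy, neuropeptide Y, by 1.27 ± 0.24 (limma adjusted p = 0.00692 and 0.012), while the list median was 0.001. Of 8 measured ependyma markers, Tmem212 fell on day 17 by 0.41 ± 0.09 (limma adjusted p = 0.0264). Of 11 endothelium, 11 mural, 11 meningeal fibroblast, 8 choroid plexus, 8 pituitary and 9 leukocyte markers 0 passed limma on day 17, with 4, 1, 0, 4, 1 and 1 at an unadjusted p below 0.05 and list medians of 0.15, 0.04, 0.23, 0.05, 0.09 and 0.085. Beside these counts, limma called 1.12% of all genes on day 17, and 16.6% had an unadjusted p below 0.05. Of the endothelium markers 9 had a higher and 2 a lower mean. The mean of the meningeal fibroblast markers ran from 5.27 to 6.64 on day 17 and from 5.51 to 6.17 in controls.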
